A study of Mus musculus with 20 samples.

Results

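The genes examined here are 32 genes of de novo fatty acid synthesis, fatty acid desaturation and elongation, and triglyceride assembly, taken by symbol from a fixed list and found, all 32 of them, among the 24062 genes counted. Poly(A) RNA was measured in 20 libraries of male C57BL/6N mice on a chow diet, of which 10 are pituitary and 10 are iWAT, the inguinal white adipose depot under the skin. In each tissue 5 libraries carry the genotype label wild type (WT) and 5 the label Klf14 knockout (KO). Klf14 encodes a zinc finger transcription factor, and the series title describes the deletion as germline, and the sources used here do not state which part of the gene was deleted. Libraries are named by label and replicate: WT 33 and WT 34 came from mice of 21 weeks, WT 48 and WT 49 from mice of 19 weeks and WT 56 from a mouse of 18 weeks, whereas KO 31, KO 32, KO 35 and KO 66 came from mice of 21 weeks and KO 50 from a mouse of 19 weeks. Whether the 5 libraries of a group are 5 animals is not stated in the labels. The ages differ within each group, so no group comes from a single animal, but libraries of the same age may share an animal. The p-values therefore cover the spread among libraries only, which may be technical in part.

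Fat cells make fatty acids in the cytosol from citrate that leaves the mitochondria, using NADPH as the reductant, and join them to a glycerol phosphate backbone to form triglyceride. They also take up fatty acids that lipoprotein lipase releases from circulating lipoproteins. Outside fat and liver the same enzymes mainly serve membrane lipids, and many of the genes belong to families whose members divide these tasks. The transcription factors SREBP (gene Srebf1), ChREBP (Mlxipl), PPAR gamma (Pparg) and C/EBP alpha (Cebpa) are known regulators of the pathway.

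The stretch upstream of the annotated start is shown for 4 genes picked from the comparisons below with their values in view. Fasn encodes fatty acid synthase and varied most widely between iWAT libraries of one label. Slc25a1 did not overlap between the labelled genotypes in the pituitary, but did not pass the adjusted test there. Acsl5 did not overlap there either, nor did 2.85% of all genes tested. Fads2 was lower in iWAT than in the pituitary, and Pck1 had the widest gap between the tissues. Each stretch is 250 bases, 5′ to 3′ on the gene's strand, from RefSeq with build GRCm38.p6. Capitals mark GC boxes (GGGCGG) and CACCC boxes (CACCC), on either strand, the kinds of site that Krüppel-like factors are known to bind. The positions are chr11:120824548-120824797 on the minus strand for Fasn, chr16:17928220-17928469 on the minus strand for Slc25a1, chr19:10101504-10101753 on the minus strand for Fads2 and chr2:173152823-173153072 on the plus strand for Pck1.
Fasn: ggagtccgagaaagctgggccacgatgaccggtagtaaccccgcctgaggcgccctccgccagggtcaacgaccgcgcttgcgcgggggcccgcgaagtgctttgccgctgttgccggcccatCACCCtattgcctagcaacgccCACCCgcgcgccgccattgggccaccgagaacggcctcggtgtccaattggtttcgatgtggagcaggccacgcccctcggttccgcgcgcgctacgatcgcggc
Slc25a1: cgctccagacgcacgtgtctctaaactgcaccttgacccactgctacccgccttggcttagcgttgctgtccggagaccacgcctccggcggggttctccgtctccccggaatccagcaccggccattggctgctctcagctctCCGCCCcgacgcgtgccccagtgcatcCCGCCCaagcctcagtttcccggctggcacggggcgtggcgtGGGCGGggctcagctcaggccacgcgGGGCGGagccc
Fads2: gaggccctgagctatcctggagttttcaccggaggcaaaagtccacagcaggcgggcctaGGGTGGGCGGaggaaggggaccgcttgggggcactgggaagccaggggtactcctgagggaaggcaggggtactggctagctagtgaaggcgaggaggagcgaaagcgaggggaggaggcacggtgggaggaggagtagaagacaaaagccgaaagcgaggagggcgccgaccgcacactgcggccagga
Pck1: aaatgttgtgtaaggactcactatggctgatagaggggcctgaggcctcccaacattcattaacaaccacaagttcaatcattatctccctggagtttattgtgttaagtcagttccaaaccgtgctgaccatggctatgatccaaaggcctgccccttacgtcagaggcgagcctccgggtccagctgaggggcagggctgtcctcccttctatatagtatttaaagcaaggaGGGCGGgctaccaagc

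The Fasn window held 2 CACCC boxes and no GC box, and 3 CCAAT boxes (CCAAT, the site of the factor NF-Y), all within 90 bases of the start. The Slc25a1 window held 4 GC boxes, at 106, 79, 37 and 11 bases before the start, and no CACCC box. In Fads2 a GC box and a CACCC box on the opposite strand share a base, 186 bases before the start. The Pck1 window held 1 GC box and the letters ACGTCA, a half-site for cyclic AMP response factors, which begin 91 bases before the start. Windows were matched for 24 of the 32 genes and compared with those of 16749 genes, both strands searched. GC boxes lay in 14 of 24 windows (58.3%, against 43.9% of all), CACCC boxes in 10 (41.7% against 53.5%), CCAAT in 10 (41.7% against 36.0%), the E-box CACGTG in 2 (8.33% against 6.87%) and ACGTCA in 2 (8.33% against 7.83%). The SREBP element TCACNCCAC lay in 0 of 24 windows and 0.997% of all, the direct repeat bound by PPAR (spacing of a single base) in 0 and 0.0597%, and the LXR direct repeat in 0 and 0%. These matches are descriptions of letters within the window shown and not of binding.

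Libraries held 13.6 to 17.6 M counts in the pituitary and 14.8 to 18.7 M in iWAT (M, mega). The targeted gene was counted at higher, not lower, levels in pituitary libraries labelled KO: Klf14 lay between 13.4 and 18.2 CPM (counts per mega-count, TMM-scaled) in labelled WT and between 29.3 and 36.9 CPM in labelled KO, and in iWAT it lay between 0.0608 and 3.06 CPM over both labels. Genotype directions below are therefore those of the labels. The tissue labels were borne out by markers: Adipoq, the adiponectin gene of fat cells, lay between 669 and 2227 CPM in iWAT and had 0 counts in 9 of 10 pituitary libraries, and pituitary libraries held 69868 to 117068 CPM of the growth hormone gene Gh. In iWAT several libraries of both labels stood apart on markers. KO 50 had the highest adipocyte marker score, the mean log2 CPM of 12 fat cell genes (10.4), and a lymph node score of 1.28, against 5.27 to 7.17 in the other 9 libraries. KO 31 had the highest skeletal muscle score, 5.06, against 0.0556 to 3.43 in the others. KO 32 held 1330 counts of Gh, against 0 to 19 in the other iWAT libraries. Epithelial and keratinocyte markers scored 4.59 in WT 34 and 3.92 in KO 66, against -0.63 to 2.47 in the other 8. WT 49 had the highest macrophage score, 7.46, against 6.00 to 6.78 in the others. WT 48 had the lowest adipocyte score, 8.68. Skeletal muscle scores were low in WT 49 (0.0556), KO 50 (0.131) and WT 56 (0.270). In the pituitary, KO 50 had a macrophage score of 4.33, against 2.75 to 3.29 in the other 9. Other pituitary libraries stood apart on other markers. WT 48 scored 4.09 on epithelial and keratinocyte markers, against 2.61 to 3.14 in the other 9. KO 66 scored 4.06 on posterior lobe and glia markers, against 3.07 to 3.58 in the other 9. The highest blood scores in the pituitary were those of KO 50 and KO 66.

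**Figure D1:**
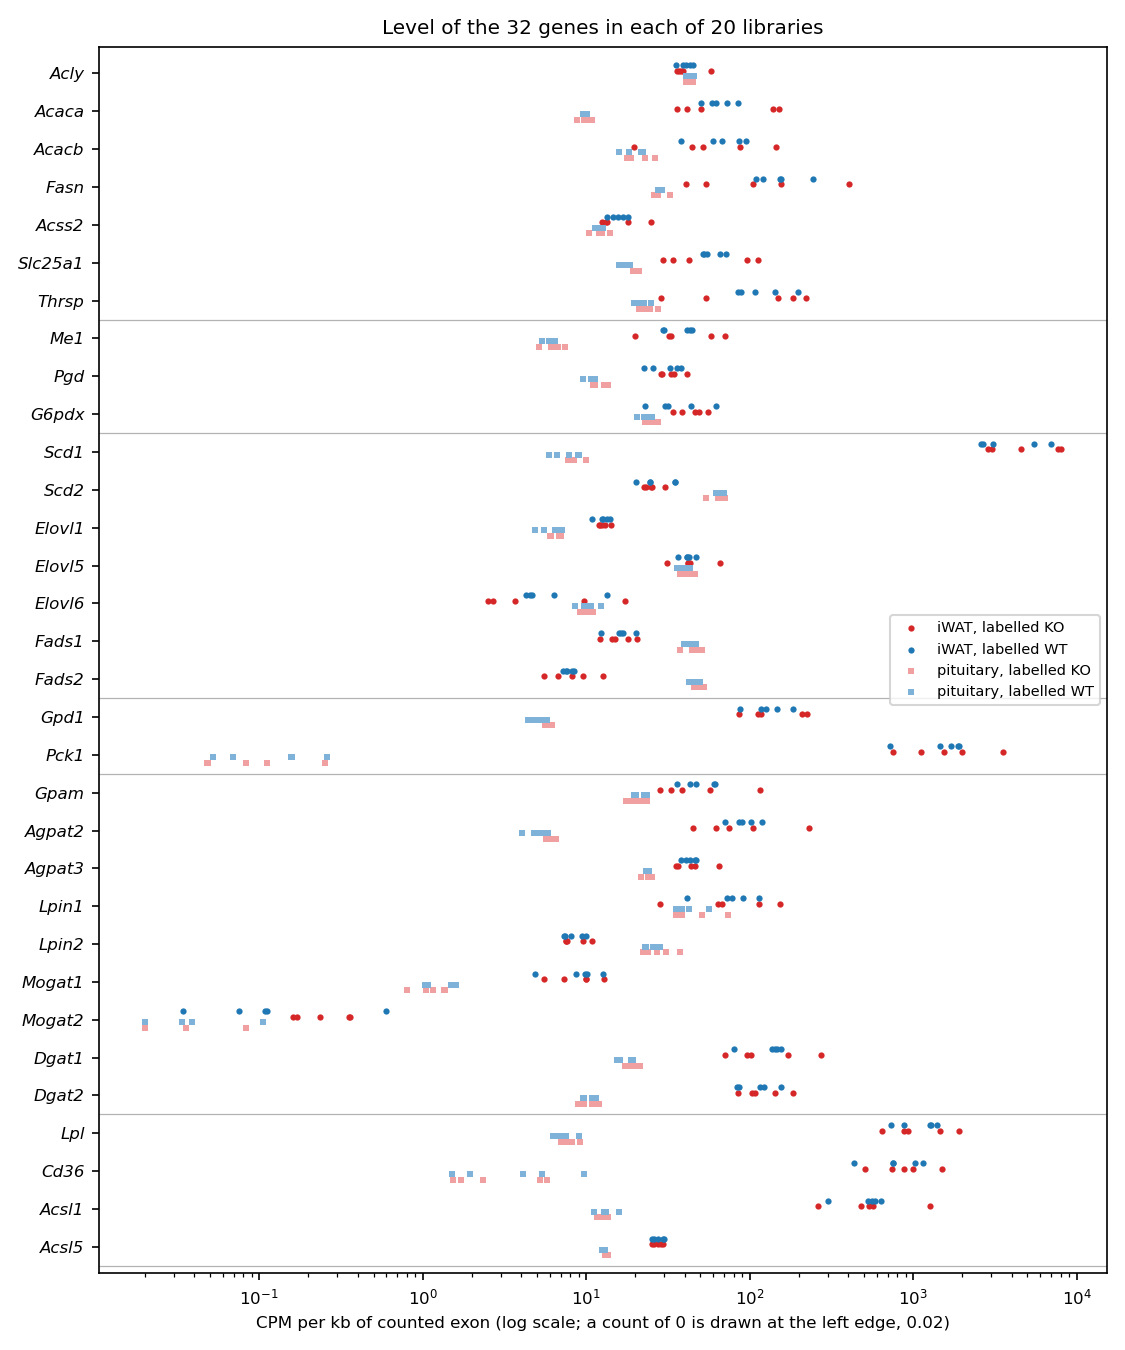
Levels of the 32 genes, from the top by role, in CPM per kb of counted exon on a log axis, with each point a library; a count of 0 is drawn at the left edge. Scd1 and Pck1 reach the highest levels in iWAT, Scd2 and Fads2 lie higher in the pituitary, and Mogat2 lies lowest in both tissues.

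Per kb of counted exon, which allows genes to be compared, the highest levels in labelled WT iWAT were those of Scd1, 4147 ± 1944 CPM per kb (SD, n = 5), Pck1, 1535 ± 489, Lpl, 1114 ± 290, Cd36, 821 ± 275, and Acsl1, 521 ± 130. These genes supply monounsaturated fatty acids (Scd1), glycerol phosphate (Pck1) and imported, CoA-activated fatty acids (Lpl, Cd36, Acsl1). Fasn followed at 156 ± 52.6 CPM per kb. In the labelled WT pituitary the order was another one: Scd2 led at 65.2 ± 2.98 CPM per kb, followed by Fads2 at 46.4 ± 2.6, Fads1 at 44.3 ± 3.25, Acly at 43.1 ± 2.06, Lpin1 at 42.0 ± 8.23 and Elovl5 at 40.1 ± 2.96, where each gene from Fads2 onwards differed from the next by less than the larger SD of the pair. Mogat2 was lowest in both tissues, with 1 to 17 counts in iWAT libraries and 0 to 3 in pituitary libraries, where 3 counts equal 0.194 CPM, so its absence from a library is not shown at this depth.

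Between the tissues, most of the genes were higher in iWAT, and the 4 that were lower were 3 desaturase genes and a lipin gene. In labelled WT libraries 24 of the 31 genes tested were higher in iWAT and 4 were lower, by edgeR's quasi-likelihood test with Benjamini-Hochberg adjustment over all genes (adjusted p under 0.05). Of all 17023 genes tested 38.9% were higher, 40.2% lower and 79.1% called either way, so a call alone is common, and the share that was higher among the 31 lies above that among all genes. The log2 fold change was above 0 for 25 of the 31 (49.6% of all genes), and its median was 1.77, against -0.012 for all genes. The groups did not overlap for 22 genes on the higher side and 4 on the lower side, against 33% and 36.3% of all genes, or 69.3% for either side. The tissues differ in cell makeup: all 12 adipocyte markers were higher in iWAT, with summed levels of 11491 to 28681 CPM in labelled WT iWAT and 75.8 to 103 CPM in labelled WT pituitary, where 2 of the 12 were at 0 in every library, and the part of cell makeup in these differences was not tested. In bulk tissue, fewer cells of a type and less RNA per cell cannot be told apart.

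**Figure D2:**
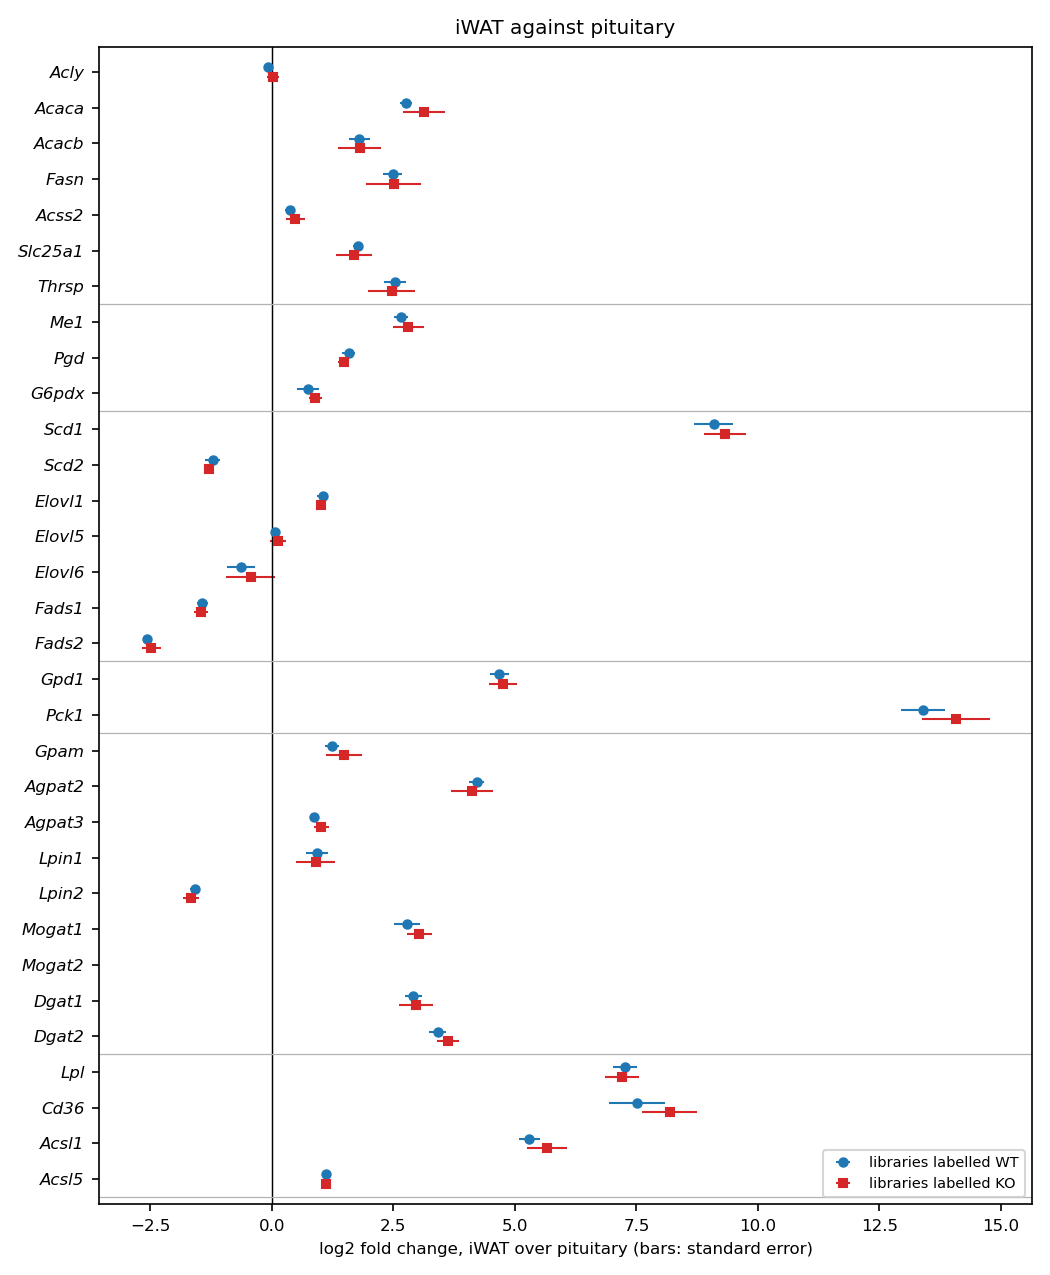
log2 fold change of iWAT over pituitary for each gene tested, with bars of 1 standard error, in libraries labelled WT (circles) and KO (squares), 5 libraries in each tissue. Fads2, Fads1, Lpin2 and Scd2 lie below 0 in both, and Acly and Elovl5 lie near 0.

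Of the 7 genes of fatty acid synthesis, 6 were higher in iWAT and 1, Acly, was not called. Fasn lay at 1082, 1513, 2414, 1535 and 1198 CPM in iWAT of WT 33, 34, 48, 49 and 56, and at 272, 288, 272, 275 and 277 CPM in the pituitary of the same numbers. Every iWAT library exceeded every pituitary library, and the spread was far narrower in the pituitary. The fold change was 5.61 (log2 2.49, SE 0.19, adjusted p = 3.43e-07). Acaca and Acacb encode the acetyl-CoA carboxylases, which make malonyl-CoA, the former for synthesis and the latter at the mitochondrial surface. Acaca was 6.74-fold higher (log2 2.75, SE 0.13, adjusted p = 5.00e-09) and Acacb 3.48-fold higher (log2 1.80, SE 0.22, adjusted p = 1.34e-05). Per kb, Acaca stood at 0.470 of Acacb in the median pituitary library and at 0.896 in the median iWAT library. Slc25a1, the mitochondrial citrate carrier, was 3.4-fold and Thrsp, a lipogenic cofactor also called Spot 14, was 5.78-fold higher in iWAT. Acly, which splits citrate to cytosolic acetyl-CoA, lay between 156 and 200 CPM in iWAT and between 180 and 201 CPM in the pituitary, an overlap with a log2 fold change of -0.079 (SE 0.072, adjusted p = 0.330). Acss2, which makes acetyl-CoA from acetate, was 1.29-fold higher, and its exons overlap those of its antisense gene Acss2os, so its counts are uncertain. All 3 NADPH genes were higher in iWAT: Me1, malic enzyme, 6.31-fold, Pgd 2.99-fold and G6pdx, both of the pentose phosphate pathway, 1.68-fold. The Me1 exons overlap those of A330041J22Rik, and G6pdx was no longer called without WT 49.

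Desaturation and elongation split by family member. Scd1 and Scd2 encode stearoyl-CoA desaturases and lie 87.6 kb apart on opposite strands of chromosome 19 (mm10, Scd1 from 44394450 to 44407709 on the minus strand, Scd2 from 44293676 to 44306862 on the plus strand). Scd1 lay at 26350, 12577, 12916, 33503 and 14940 CPM in iWAT of WT 33, 34, 48, 49 and 56, and at 31.8, 43.6, 43.1, 38.1 and 28.5 CPM in the pituitary. It was 544-fold higher in iWAT (log2 9.09, SE 0.41, adjusted p = 4.39e-09). Its neighbour went the other way. Scd2 lay at 134, 110, 192, 191 and 134 CPM in iWAT and at 365, 342, 377, 338 and 356 CPM in the pituitary, with no overlap, and was 2.33-fold lower in iWAT (log2 -1.22, SE 0.15, adjusted p = 1.21e-05). The microRNA gene Mir5114 shares exon bases with Scd2, so the Scd2 counts are uncertain. Per kb, Scd1 exceeded Scd2 by 76.0 to 222-fold in labelled WT iWAT, whereas Scd2 exceeded Scd1 by 6.95 to 11.1-fold in the labelled WT pituitary.

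The desaturases of polyunsaturated fatty acids, Fads1 and Fads2, were both lower in iWAT. They are neighbours on chromosome 19 as well, 81.4 kb apart on opposite strands (Fads1 from 10182888 to 10196872, Fads2 from 10064164 to 10101503). Fads2 lay at 11.4, 12.4, 10.8, 12.7 and 11.4 CPM in iWAT of WT 33, 34, 48, 49 and 56 and at 72.7, 74.5, 69.6, 64.3 and 68.5 CPM in the pituitary. It was 5.93-fold lower in iWAT (log2 -2.57, SE 0.071, adjusted p = 1.02e-10), the most of the 31 genes tested. Fads1 lay between 42.4 and 70.1 CPM in iWAT and between 137 and 162 CPM in the pituitary and was 2.70-fold lower (log2 -1.43, SE 0.12, adjusted p = 4.09e-07). Per kb, Fads1 and Fads2 stood near parity in the pituitary (median ratio 0.953), and Fads1 exceeded Fads2 in iWAT (2.11).

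Among the elongases, Elovl1, which acts on very long saturated chains, was 2.07-fold higher in iWAT (log2 1.05, SE 0.12, adjusted p = 5.46e-06); its exons overlap those of Cdc20. Elovl5, which lengthens polyunsaturated chains, was not called (log2 0.059, SE 0.076, adjusted p = 0.488). Elovl6, which lengthens palmitate to stearate, lay at 26.9, 25.4, 79.4, 37.8 and 27.6 CPM in iWAT of WT 33, 34, 48, 49 and 56 and between 50.7 and 73.3 CPM in the pituitary. Of these, 4 lay below every pituitary library and WT 48 lay above every one. Its log2 fold change was -0.64 (SE 0.30, adjusted p = 0.0681), and without WT 48 it was called lower in iWAT.

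Both suppliers of glycerol phosphate were higher in iWAT. Pck1, which makes the backbone from pyruvate in fat cells (glyceroneogenesis), lay at 4942, 3821, 1888, 4987 and 4439 CPM in iWAT of WT 33, 34, 48, 49 and 56, and pituitary libraries of the same label held 2 to 11 counts. Its log2 fold change of 13.39 (SE 0.45, adjusted p = 5.44e-10) therefore rests on few pituitary counts. Gpd1, which reduces dihydroxyacetone phosphate to glycerol phosphate, was 25.6-fold higher (log2 4.68, SE 0.20, adjusted p = 3.28e-09).

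Of the 8 genes of glyceride assembly tested, 7 were higher in iWAT and Lpin2 was lower. Agpat2 and Agpat3 acylate lysophosphatidate, and loss of the former is a known cause of lipodystrophy. Agpat2 was 18.5-fold higher (log2 4.21, SE 0.16, adjusted p = 9.89e-10), and Agpat3 1.82-fold (log2 0.86, SE 0.069, adjusted p = 3.60e-07). Per kb, Agpat2 stood at 0.210 of Agpat3 in the median pituitary library and at 2.12 in the median iWAT library. Lpin1 and Lpin2 encode phosphatidate phosphatases, which make diacylglycerol. Lpin1 was 1.90-fold higher in iWAT (log2 0.92, SE 0.23, adjusted p = 0.00327). Lpin2 lay at 43.7, 58.6, 55.4, 47.1 and 42.8 CPM in iWAT and at 134, 166, 155, 150 and 135 CPM in the pituitary of WT 33, 34, 48, 49 and 56, and was 2.98-fold lower in iWAT (log2 -1.57, SE 0.10, adjusted p = 7.81e-08). The enzymes of the last step were both higher: Dgat1 7.51-fold (log2 2.91, SE 0.17, adjusted p = 3.42e-08) and Dgat2 10.6-fold (log2 3.41, SE 0.18, adjusted p = 1.39e-08). Mogat1, a monoacylglycerol acyltransferase, was 6.87-fold higher (log2 2.78, SE 0.26, adjusted p = 1.37e-06) from a low level of 1.62 ± 0.321 CPM in the pituitary. Gpam, the mitochondrial glycerol phosphate acyltransferase, was 2.36-fold higher. Mogat2 did not pass the filter on low counts.

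All 4 genes of fatty acid uptake and activation were higher in iWAT. Lpl, lipoprotein lipase, lay between 2959 and 5654 CPM in iWAT and between 25.2 and 36.4 CPM in the pituitary, a 154-fold difference (log2 7.27, SE 0.24, adjusted p = 4.64e-10). Cd36, a fatty acid translocase also found on capillary cells, was 183-fold higher (log2 7.52, SE 0.58, adjusted p = 3.21e-07), with pituitary values that ranged from 5.93 to 38.0 CPM among libraries labelled WT. The acyl-CoA synthetases differed: Acsl1 was 39.4-fold higher (log2 5.30, SE 0.22, adjusted p = 2.27e-09) and Acsl5 2.16-fold (log2 1.11, SE 0.063, adjusted p = 2.42e-08). Per kb the pair stood near parity in the pituitary (median ratio of Acsl1 to Acsl5 1.02), and Acsl1 exceeded Acsl5 by 20.8-fold in the median labelled WT iWAT library.

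The tissue contrast in libraries labelled KO, which the fit above did not use, gave 23 of 31 genes higher and 4 lower in iWAT by edgeR, where 75.1% of all 16905 genes tested were called, 37.8% higher and 37.3% lower. The log2 fold change was above 0 for 26 of the 31 (50.8% of all genes). The groups did not overlap for 21 genes on the higher side and 4 on the lower side, against 28.2% and 35.5% of all genes, or 63.6% for either side. The 4 lower genes were again Fads2 (log2 -2.49, SE 0.20), Lpin2 (-1.66, SE 0.16), Fads1 (-1.45, SE 0.14) and Scd2 (-1.30, SE 0.10). The genes with the widest gaps were also those above: Pck1 (log2 14.07), Scd1 (9.33, SE 0.43), Cd36 (8.19, SE 0.57), Lpl (7.21, SE 0.35) and Acsl1 (5.66, SE 0.42). Lpin1 was not called here (log2 0.90, SE 0.40, adjusted p = 0.0608), although it passed without KO 31. Acss2 passed (log2 0.48, SE 0.19, adjusted p = 0.0394) but was lost on leaving out KO 31, KO 32, KO 50 or KO 66. Without number 32, whose iWAT library held Gh counts, 26 genes were called, all of them among the 27. Fasn was 5.67-fold higher (log2 2.50, SE 0.56, adjusted p = 0.00191), with a standard error wider than in labelled WT.

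In labelled WT libraries, where 38.9% of all genes were higher in iWAT and 40.2% lower, 10 of 14 listed regulators were higher in iWAT and 1 was lower, among them Srebf1 (200 ± 17.3 against 136 ± 6.69 CPM, log2 0.57), Mlxipl (43.9 ± 11.6 against 5.51 ± 1.01 CPM, 7.98-fold), Pparg (175 ± 39.7 against 0.919 ± 0.243 CPM, log2 7.57) and Cebpa (382 ± 152 against 1.81 ± 0.271 CPM, log2 7.71; SD, n = 5 each). Of the other fatty acid enzymes listed, 15 of 23 tested were higher and 6 lower. Of the other genes of glyceride assembly, uptake and activation, 9 of 23 tested were higher and 8 lower, shares near those among all genes, with a median log2 fold change of 0.030.

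In iWAT, none of the genes passed the test between the labelled genotypes. By edgeR, 0 of 31 genes tested were called, where 0% of all 16105 genes tested were called. None of the 31 had an unadjusted p under 0.05 (89 genes did among all genes), and DESeq2 and limma voom also called 0. The genes with the smallest unadjusted p on the positive side were G6pdx (log2 fold change of labelled KO over labelled WT 0.22, SE 0.26), Acaca (0.35, SE 0.42) and Scd1 (0.34, SE 0.42), and on the negative side Scd2 (-0.14, SE 0.17), Fads1 (-0.023, SE 0.17) and Acsl5 (-0.0073, SE 0.080). Groups overlapped for all 31 genes (of all genes 0.0745% did not overlap, 0.0497% with higher and 0.0248% with lower values in labelled KO). Fasn stood at 1548 ± 522 CPM in labelled WT and 1508 ± 1469 CPM in labelled KO (SD, n = 5 each; log2 -0.035, SE 0.57, adjusted p = 1). With an SE this wide, the p does not show that the genotypes are alike. Marker genes of other tissue components leaned as well, with 0 called: all 11 skeletal muscle genes had positive fold changes (median log2 1.19), as did all 6 blood genes (0.35), whereas all 5 epithelial and keratinocyte genes tested (-1.07), 6 of 7 brown or beige adipocyte genes (-0.39), all 10 macrophage genes (-0.23) and all 9 preadipocyte and fibroblast genes (-0.23) had negative ones. Adipocyte markers had positive fold changes for 9 of 12 genes (median log2 0.10) and endothelial markers for 4 of 7 (0.030). Lymph node markers had negative ones for 10 of 13 (-0.087). The part of these components in the values of the lipid genes was not tested.

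**Figure D3:**
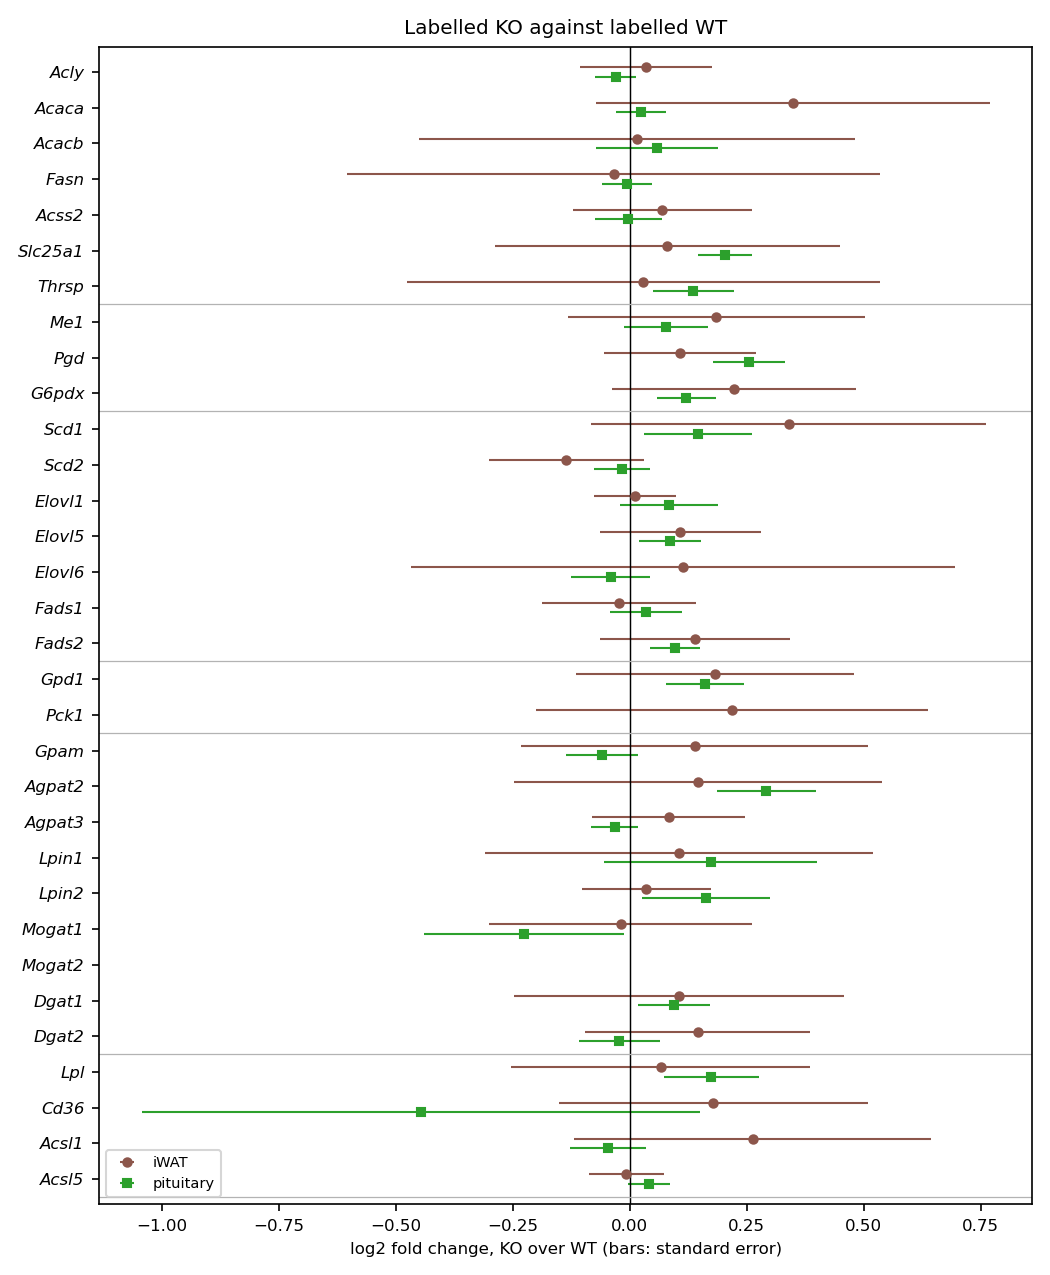
log2 fold change of labelled KO over labelled WT for each gene tested, in iWAT (circles) and the pituitary (squares), with bars of 1 standard error and 5 libraries a group. Bars are longer in iWAT for every gene but Cd36 and Elovl1, and no gene passed the adjusted threshold in either tissue.

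Fold changes in iWAT were positive for 26 of the 31 genes (49.9% of all genes tested were positive), with a median of 0.11 on the log2 scale, and this lean rested on KO 50. Without KO 50 the fold change was positive for 12 of 31 genes and the median was -0.040; with mice of 21 weeks only it was positive for 11 of 32 and the median was -0.10. With the adipocyte marker score as a covariate it was positive for 18 of 31, with a median of 0.034. KO 50 gave the highest level of 17 of the 31 genes (it was highest for 26.4% of all genes), among them Acaca, Scd1, Pck1, Agpat2, Dgat1, Dgat2, Lpl, Cd36 and Acsl1. KO 32 was highest for 8 (4.58% of all genes), and these were mainly genes of synthesis: Acly, Fasn, Acss2, Slc25a1, Thrsp, Me1, Elovl6 and Fads1. KO 31 was lowest for 16 (15.4% of all genes), including Fasn, Acaca, Acacb, Thrsp, Lpin1 and Acsl1. KO 50, KO 32 and KO 31 stand apart on the marker genes given above, and the part of those tissue differences in these levels was not tested.

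**Figure D4:**
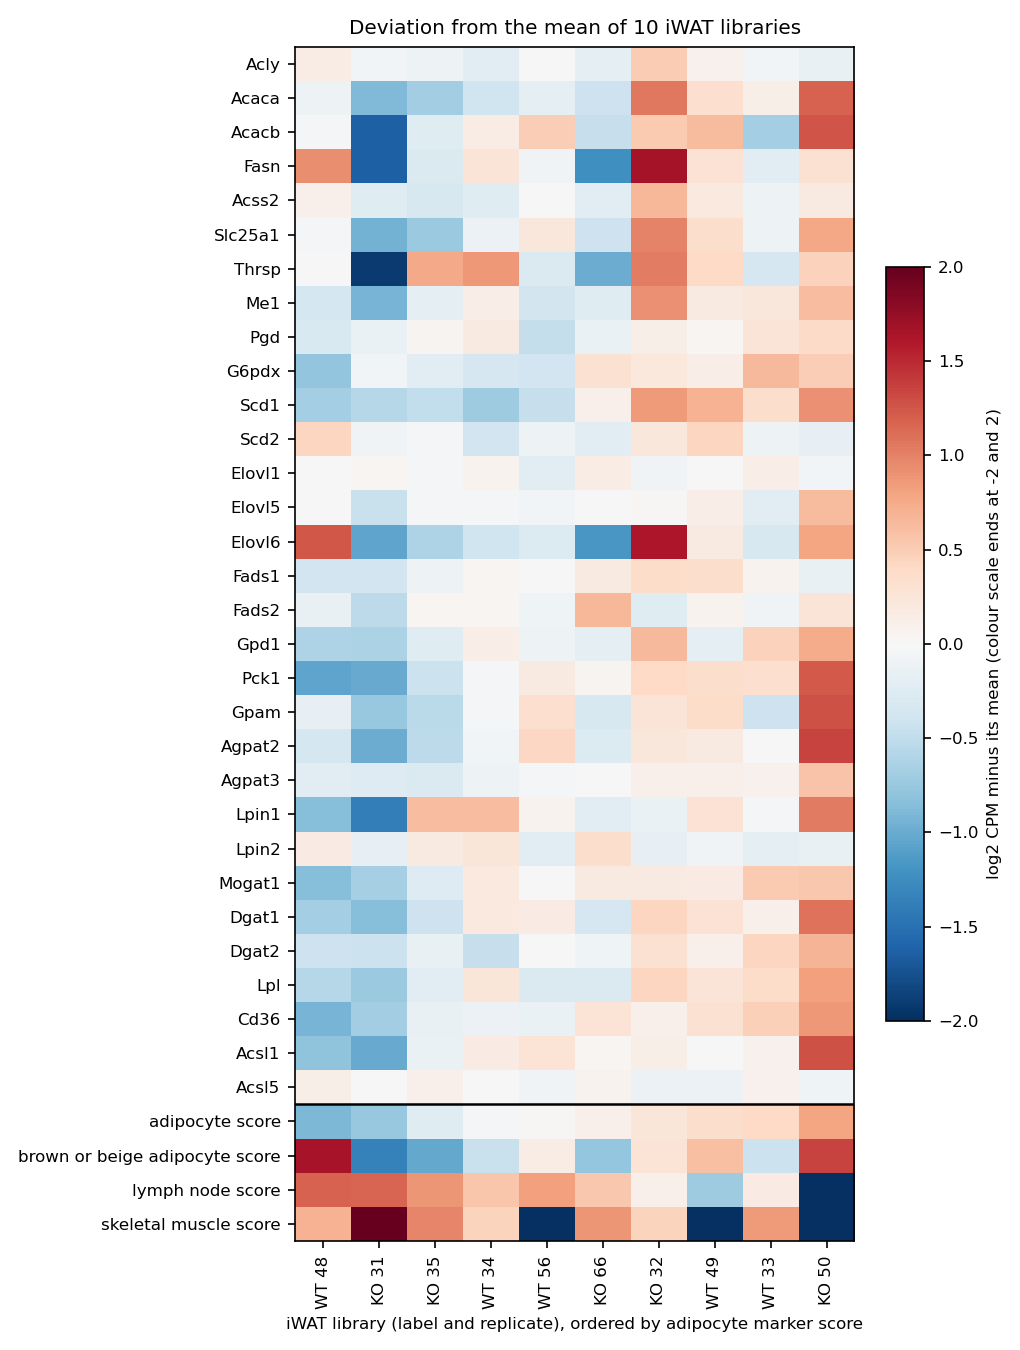
Deviation of log2 CPM from its mean over 10 iWAT libraries, for 31 genes (all but Mogat2) and 4 marker scores, with libraries ordered by adipocyte score from WT 48 to KO 50. KO 50 is high for most assembly and uptake genes but not for Lpin2 and Acsl5, KO 32 is high for Fasn, Elovl6, Thrsp and Slc25a1, and the lymph node score is lowest in KO 50.

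Fasn showed the widest spread among libraries labelled KO in iWAT. It lay at 406, 4008, 1038, 1550 and 537 CPM in KO 31, 32, 35, 50 and 66. The highest of these was above, and the 3 lowest below, all 5 labelled WT libraries, whose lowest value was 1082 CPM. The SD of log2 CPM was 1.31 in labelled KO and 0.447 in labelled WT, and without KO 32 the log2 fold change became -0.81, still not called. Thrsp (SD 1.27 against 0.510), Elovl6 (1.23 against 0.684) and Acacb (1.08 against 0.516) were also more spread in labelled KO. In all, 25 of 32 genes were more spread in labelled KO than in labelled WT iWAT, against 64.0% of all genes, and 23 of 32 without KO 50, against 39.4% of all genes. This difference in spread was not tested.

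Not all genes varied with the fat content of the library. Acsl5 lay between 79.7 and 94.3 CPM in all 10 iWAT libraries and Elovl1 between 21.1 and 27.3 CPM. Pck1 followed the adipocyte score closely: its log2 CPM minus that score lay between 2.12 and 2.81. The same difference for Fasn ranged from -0.61 in KO 66 and -0.15 in KO 31 to 2.15 in KO 32 and 2.56 in WT 48, the library with the lowest adipocyte score. For Elovl6 it ranged from -5.78 in KO 66 to -3.13 in KO 32 and -2.36 in WT 48. For a gene that stays level, a low score raises this difference. WT 48, with a score of 8.68, ranked first for 17 of the 32 genes, Acsl5 and Elovl1 among them. KO 31, with a score of 8.81, ranked first for 3. The part of the low score in these ranks was not tested. WT 48 also had the highest brown or beige adipocyte score, 4.0, followed by KO 50 at 3.71.

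**Figure D5:**
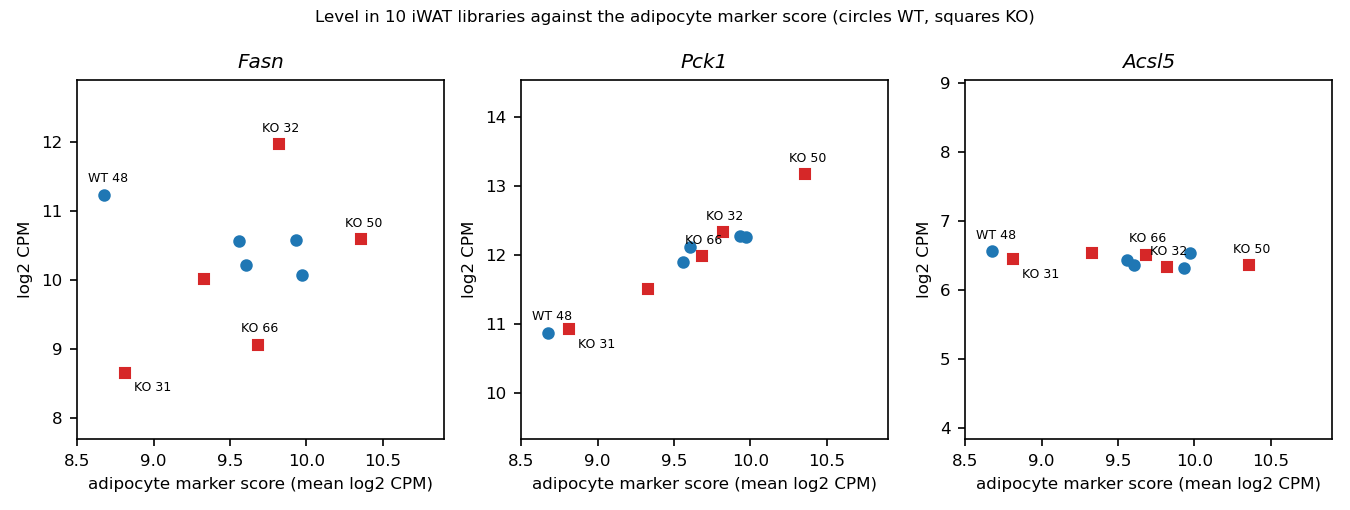
log2 CPM of Fasn, Pck1 and Acsl5 against the adipocyte marker score (mean log2 CPM of 12 genes) in 10 iWAT libraries, circles for labelled WT and squares for labelled KO, on vertical axes of equal length. Pck1 climbs with the score, Acsl5 stays level, and Fasn does neither, with WT 48 and KO 32 high.

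Fasn was compared with 6 measures across the 10 iWAT libraries by permutation tests with 100000 resamples (two-sided), and none of the 6 relations passed after Benjamini-Hochberg adjustment. Against the adipocyte score Pearson's r was 0.22 (p = 0.544, adjusted 0.544) and Spearman's rho 0.25 (p = 0.493, adjusted 0.493). Without the 2 libraries farthest from the median score, KO 31 and WT 48, r was 0.25. With Srebf1, r was 0.47 (permutation p = 0.172, adjusted 0.424; rho 0.52, p = 0.133, adjusted 0.265), falling to 0.25 without KO 31 and KO 50. With Mlxipl, r was 0.41 (permutation p = 0.237, adjusted 0.424; rho 0.54, p = 0.115, adjusted 0.265), and 0.52 without KO 50 and WT 49. With Klf14, r was -0.42 (permutation p = 0.226, adjusted 0.424; rho -0.45, p = 0.189, adjusted 0.284) and -0.24 without WT 34 and WT 48. Klf14 had only 1 to 49 counts in these iWAT libraries of both labels, so its log2 CPM is uncertain. The skeletal muscle score gave r = -0.38 (permutation p = 0.282, adjusted 0.424; rho -0.67, p = 0.0392, adjusted 0.235), and -0.38 again without KO 50 and WT 49. The lymph node score gave r = -0.21 (permutation p = 0.485, adjusted 0.544; rho -0.37, p = 0.296, adjusted 0.356), and -0.36 without KO 50 and WT 49.

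Levels were far steadier in the pituitary. Among labelled WT libraries the median SD of log2 CPM over 30 genes was 0.124 in the pituitary and 0.342 in iWAT, and 28 of 30 genes were more spread in iWAT (80.9% of all genes were). Among labelled KO libraries the medians were 0.134 and 0.588, and 27 of 30 genes were more spread in iWAT (82.1% of all genes). The exceptions in labelled WT were Cd36 and Elovl1.

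In the pituitary, none of the genes passed the test between the labelled genotypes. By edgeR, 0 of 30 genes tested were called, where 0.549% of all 16389 genes tested were called (0.415% higher and 0.134% lower), and DESeq2 and limma voom also called 0 of the 30. Unadjusted p was under 0.05 for 3 of the 30 genes, all with higher values in labelled KO. Among all 16389 genes, 1792 had an unadjusted p under 0.05, a share near that among the 30. Slc25a1, the citrate carrier, lay at 28.9, 30.4, 30.9, 30.0 and 26.7 CPM in WT 33, 34, 48, 49 and 56 and at 35.2, 32.6, 34.6, 34.7 and 33.0 CPM in KO 31, 32, 35, 50 and 66. All 5 labelled KO libraries lay above all 5 labelled WT libraries, with a log2 fold change of 0.20 (SE 0.058, adjusted p = 0.157). Pgd, of the pentose phosphate pathway, had a log2 fold change of 0.25 (SE 0.077, adjusted p = 0.188), with 23 of 25 pairs of libraries higher in labelled KO, and Agpat2 of 0.29 (SE 0.11, adjusted p = 0.288), with 24 of 25 pairs. On the negative side the smallest unadjusted p were those of Mogat1 (-0.23, SE 0.21), Gpam (-0.059, SE 0.077) and Cd36 (-0.45, SE 0.60).

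Besides Slc25a1, the groups did not overlap for Acsl5, a gene with a narrow range: 39.3 to 40.9 CPM in labelled WT and 41.0 to 42.6 CPM in labelled KO (log2 0.041, SE 0.045). These are 2 of 30 genes, where 2.85% of all genes did not overlap, 1.91% with higher and 0.94% with lower values in labelled KO. Fasn lay at 272, 288, 272, 275 and 277 CPM in labelled WT and at 273, 259, 264, 322 and 267 CPM in labelled KO, a log2 fold change of -0.0060 (SE 0.053, adjusted p = 0.980). Fold changes were positive for 19 of 30 genes (51.2% of all genes tested), with a median of 0.068 on the log2 scale. Macrophage markers had positive fold changes for 9 of 10 genes (median log2 0.37), with 0 called. All 6 blood genes were positive (0.20), as were 7 of 10 posterior lobe and glia genes (0.13) and 4 of 7 lymph node genes tested (0.33). Positive fold changes were fewer for hormone cell genes (4 of 10, -0.013) and for epithelial and keratinocyte genes (2 of 5 tested, -0.18). Endothelial genes were positive for 4 of 7 (0.0067), and none of these marker genes was called. KO 50, which had the highest Fasn level, stands apart on the macrophage markers. The part of these components in the values was not tested. Without KO 50, 0 of 30 genes were called, 20 were positive and the median was 0.051. Pck1 and Mogat2 did not pass the filter on low counts.

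Of the related genes, 1 passed in a genotype comparison. Slc27a2, a very long chain acyl-CoA synthetase and fatty acid transporter, was higher in labelled KO pituitary, at 29.8 ± 2.32 against 21.9 ± 1.97 CPM (SD, n = 5 each), a log2 fold change of 0.44 (SE 0.075, adjusted p = 0.0138 by edgeR, higher in all 25 pairs). The call was lost with mice of 21 weeks only (log2 0.50, adjusted p = 0.254), in 1 fit over all 20 libraries (adjusted p = 1) and without WT 49 (adjusted p = 0.0510). It was 1 of 22 tested genes of its list, with 0 of 14 regulators and 0 of 23 other fatty acid enzymes called in the pituitary. In iWAT 0 of all 3 lists were called. Among all genes tested, 0.549% were called in the pituitary and 0% in iWAT. In the pituitary 1.91% of all genes had every labelled KO library above every labelled WT library.

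Whether the genotype difference itself differed between the tissues was tested as an interaction over all 20 libraries. By edgeR, 0 of 31 genes were called, where 0% of all 17731 genes tested were called, and none of the 31 had an unadjusted p under 0.05 (427 of all genes did). DESeq2 called 0 of the 31 and 1 gene in all, and limma voom called 0. The differences (iWAT minus pituitary, log2) with the smallest unadjusted p were 0.65 for Cd36 (SE 0.66), 0.34 for Acsl1 (SE 0.41) and 0.14 for Agpat3 (SE 0.18) on the positive side, and -0.12 for Pgd (SE 0.19), -0.10 for Lpin2 (SE 0.19) and -0.093 for Scd2 (SE 0.18) on the negative side. For Fasn the difference was -0.0022 (SE 0.59). The difference was above 0 for 18 of the 31 genes, where it was above 0 for 56.7% of all genes.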

How the data were processed

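Poly(A) RNA of 20 libraries was analysed. The authors deposited whole-number read counts per gene, not normalized, which featureCounts made from the exons in UCSC's mm10 annotation, per the file headers: only primary alignments were used, a read over several genes was counted for each, and no strand option was set. The submitters' processing notes name mm10 and GRCm38 as builds, STAR 2.4.0 and featureCounts 1.4.4.

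Each comparison had its own edgeR fit on these counts (edgeR 4.0.16, R 4.3.3), with the filterByExpr filter, TMM scaling and a robust quasi-likelihood test, Benjamini-Hochberg adjustment over all genes tested, a threshold of 0.05 and no covariate; the interaction used all 20 libraries. SE is the log2 fold change over the square root of F. CPM values were TMM-scaled over all 20 libraries, and log2 CPM uses a prior count of 2. Total counts were 13.6 to 18.7 M, so 3 counts equal 0.184 CPM in iWAT and 0.194 CPM in the pituitary. No 2 libraries of a group agreed within sampling noise. Alternatives were DESeq2 1.42.0, limma 3.58.1 voom with quality weights, RLE scaling, other filters, leaving out the 20 most abundant genes, 21-week mice alone, an age covariate, 1 fit over all libraries, an adipocyte score covariate, each replicate left out, a replicate block and a threshold of 0.1. The fits were tested on simulated data. Named genes are those of families with several members, those lower in iWAT and the 8 most higher in iWAT, and, between genotypes, called genes and the 3 smallest p in each direction; Fasn is named throughout. Other genes given with values were picked with those values in view. Of the list genes, 7 were matched by an older symbol. The genes and lists were chosen with earlier results of these data known.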

Additional observations from a re-analysis of the deposited data

Results flagged for a closer look

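In 4 cases the highest or lowest library of a group of 5 lay farther from its nearest neighbour than 0.71 of the group's range. This is the 95% limit of Dixon's test. The flags fell on 2 of 31 genes tested in labelled WT iWAT and 1 of 31 in labelled KO iWAT. In the pituitary they fell on 0 of 30 genes in labelled WT and 1 of 30 in labelled KO. Chance alone flags about 1 group in 20, and 5.36 to 6.38% of all genes were flagged per group. The 4 cases thus do not stand out from the share among all genes. Elovl6 in WT 48 iWAT was the highest of its group, at 79.4 CPM with the next library at 37.8 CPM, a gap of 0.77 of the range. Dgat1 in WT 48 iWAT was the lowest, at 141 CPM with the next at 241 CPM, a gap of 0.751. Acly in KO 32 iWAT was the highest, at 256 CPM with the next at 174 CPM, a gap of 0.851. Fasn in KO 50 pituitary was the highest, at 322 CPM with the next at 273 CPM, a gap of 0.785.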

How the results depend on the processing

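The 4 genes lower in iWAT were lower in all alternatives run, in both labels. With the 20 most abundant genes left out, which removes Scd1, Pck1 and Lpl from the test, the median log2 fold change of the genes between the tissues in labelled WT was 1.41 in place of 1.77. With no filter the median of all genes in the tissue comparison of labelled KO moved to 0.17. No alternative called any of the 32 genes between the labelled genotypes or in the interaction. In the pituitary the number of all genes called was 90 as reported, 288 with DESeq2, 192 at a threshold of 0.1, 44 with age as a covariate, 5 with mice of 21 weeks only and 1 in 1 fit over all libraries, and it ranged from 50 to 112 on leaving out a replicate. In the interaction DESeq2 called 1 gene.

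Between the tissues, limma voom added Elovl6 to the lower genes in labelled WT (log2 -0.93, adjusted p = 0.00103) and in labelled KO (-1.13, adjusted p = 0.0167). In labelled KO, Lpin1 was added by limma voom (adjusted p = 0.0374), DESeq2 (0.0340) and 1 fit over all libraries (0.0227), Acss2 was lost with limma voom and with no filter, and Mogat2 was added with no filter. A threshold of 0.1 would add Elovl6 in labelled WT and Lpin1 in labelled KO.

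In the genotype comparisons and the interaction, the log2 fold changes that changed sign had not passed, and the cause was not tested. In iWAT, limma voom gave Fads1 0.069 and Acsl5 0.031, age as a covariate Fasn 0.038, mice of 21 weeks only Fasn 0.20, G6pdx -0.18 and Scd2 0.20, and 1 fit over all libraries Acsl5 0.018. In the pituitary, age as a covariate gave Fasn 0.029. In the interaction, limma voom gave Acsl1 -0.045, Lpin2 0.085 and Scd2 0.013, age as a covariate Fasn 0.0045, and mice of 21 weeks only Fasn 0.28, Acsl1 -0.37, Agpat3 -0.057 and Scd2 0.22. On leaving out a replicate the ranges were -0.81 to 0.21 for Fasn, -0.13 to 0.065 for Fads1 and -0.039 to 0.022 for Acsl5 in iWAT, -0.064 to 0.016 for Fasn and -0.75 to 0.029 for Cd36 in the pituitary, and -0.79 to 0.24 for Fasn, -0.24 to 0.0063 for Pgd, -0.11 to 0.53 for Acsl1 and -0.026 to 0.23 for Agpat3 in the interaction. Elovl5 between the tissues in labelled KO ranged from -0.073 to 0.19.

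The labels do not say that a shared number is a shared animal. Same-numbered libraries deviated together (correlation over 0.1) in 1 of 10 pairs, with a range of -0.070 to 0.118. Among the 5 numbers of the same label, 7 of 10 correlated best with their own number. That is more often than random matching would give. With the number as a replicate block, 24 genes were higher and 5 lower in iWAT in labelled WT (Elovl6 was added, adjusted p = 0.0447), 24 and 4 in labelled KO (Lpin1 was added, adjusted p = 0.0357), and 0 in the interaction. The block gave 13197 calls among all genes in labelled WT, 12270 in labelled KO and 0 in the interaction.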

Other observations

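Slc27a2, the related gene that passed in the pituitary, had a far wider range in iWAT, from 0.417 to 75.3 CPM over the 10 libraries, and the labelled genotypes overlapped there (16.4 ± 10.6 CPM in labelled WT and 33.8 ± 28.9 CPM in labelled KO, SD, n = 5 each). In a global alignment of the upstream windows of paralogs, 116 of 250 bases were identical between Acaca and Acacb and 118 of 250 between Lpin1 and Lpin2. Unrelated windows were not aligned, so whether these shares are high or low cannot be said. Dgat2 and Mogat2 lie 36.4 kb apart on the same strand of chromosome 7, at 112 ± 29.6 and 0.186 ± 0.233 CPM per kb in labelled WT iWAT (SD, n = 5 each).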
